A study of Mus musculus with 20 samples.

Results

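The genes described here are the heat shock protein and DnaJ chaperone genes of the mouse. They were chosen by name: every gene on the array whose symbol begins with Hspa, Hspb, Hspd, Hspe, Hsph, Hsp90a, Dnaja, Dnajb or Dnajc and a digit, together with Chordc1, Ahsa1, Stip1 and Hsf1, and without Hspa5 and Dnajb9. The rule found 61 of the 15781 named genes, with 552 probe sets among them. It names no measured value, but the members were chosen with earlier results of these data known. Retinas of C57Bl/6J mice carrying Nrl-/- were profiled on exon arrays at 1, 2, 4, 6 and 10 months of age, with 4 mice per age. All 20 mice share the genotype, so age is the factor compared, and each sample is the pair of retinas of 1 mouse. Rods need the transcription factor Nrl to form, and in its absence the cells that would become rods take on cone features. Neither Nrl itself nor a wild-type retina was analysed here. As a check of the tissue, the cone opsin gene Opn1sw read 13.49 to 13.77 over the 20 arrays. Of 8 rod markers 6 were measured, and they read 12.39 to 12.81 (Sag), 10.13 to 10.72 (Pde6a), 7.78 to 9.11 (Pde6b), 7.40 to 8.86 (Gngt1), 6.27 to 6.70 (Gnat1) and 5.10 to 6.26 (Nr2e3). Values are log2 intensities, and a difference of 1 on that scale is a doubling.

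Chaperones of the Hsp70 family bind unfolded stretches of protein in cycles driven by ATP. DnaJ proteins bring clients to Hsp70 and start its ATP hydrolysis, Hsp110 proteins release the nucleotide, and Hsp90 with its partners finishes the folding of many kinases and receptors. The transcription factor Hsf1 binds heat shock elements, inverted repeats of the letters GAA and TTC, and raises many of these genes under stress. Photoreceptors make and transport large amounts of membrane protein, and DnaJ proteins have been studied in the handling of rhodopsin.

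The cytosol was assigned to 25 of the 61 members and the nucleus and cytosol to Hsf1, while 22 were given no location. The rule also took genes of the endoplasmic reticulum (Dnajb11, Dnajc1, Dnajc3, Dnajc10, Hspa13 and Dnajb12) and of the mitochondrion (Hspa9, Dnaja3, Dnajc11, Dnajc15, Dnajc19 and Dnajc30), and Hspb11, a cilium protein now named Ift25. Hspa8, Hspd1, Hspe1, Hspb1, Hspa1b, Hspa1l, Dnajb6, Dnajb14, Dnajc13, Dnajc21 and Dnajc25 were not analysed here. Of the 61 members, 51 passed the filter on dim genes and were tested. The other 10 (Dnajb3, Dnajb7, Dnajc17, Dnajc22, Dnajc5b, Dnajc5g, Hsp90aa1, Hspb11, Hspb3 and Hspb7) had mean levels between 3.09 and 5.60, and their ages were not compared. Among the members tested, mean levels ran between 5.68 and 12.05. Levels of different genes come from different probe sets and are not set against each other.

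The promoters of 3 members are shown because these genes were lower at 10 months than at 1, 4 and 6 months and hold heat shock element letters near the start of transcription. They are 3 of the 7 such lower members with a listed promoter, and letters of the same kind were found in members that were not lower. Each runs 5′ to 3′ on the gene's strand, with 250 bases before and 50 after the RefSeq start (GRCm38.p6). Capitals mark every match to the pair GAANNTTC or TTCNNGAA. The coordinates are chr5:149636287-149636586 on the minus strand for Hsph1, chr9:18292017-18292316 on the plus strand for Chordc1 and chr9:54699309-54699608 on the plus strand for Dnaja4.
Hsph1: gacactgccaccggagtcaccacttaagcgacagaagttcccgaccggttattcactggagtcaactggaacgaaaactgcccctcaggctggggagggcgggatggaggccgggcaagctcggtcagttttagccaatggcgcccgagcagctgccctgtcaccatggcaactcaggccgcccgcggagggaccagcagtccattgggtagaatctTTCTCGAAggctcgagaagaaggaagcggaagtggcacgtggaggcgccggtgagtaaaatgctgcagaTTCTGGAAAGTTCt
Chordc1: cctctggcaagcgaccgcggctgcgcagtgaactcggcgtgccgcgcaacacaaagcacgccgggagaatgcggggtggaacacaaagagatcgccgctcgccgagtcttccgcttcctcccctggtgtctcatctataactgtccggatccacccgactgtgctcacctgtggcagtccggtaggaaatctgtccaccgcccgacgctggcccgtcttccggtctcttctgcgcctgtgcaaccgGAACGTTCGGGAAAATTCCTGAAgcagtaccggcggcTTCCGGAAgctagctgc
Dnaja4: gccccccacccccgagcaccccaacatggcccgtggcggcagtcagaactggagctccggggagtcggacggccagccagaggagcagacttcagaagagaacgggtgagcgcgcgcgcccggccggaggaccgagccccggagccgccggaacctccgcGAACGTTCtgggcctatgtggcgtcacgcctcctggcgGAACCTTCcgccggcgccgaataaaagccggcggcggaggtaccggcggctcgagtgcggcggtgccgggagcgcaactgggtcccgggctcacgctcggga

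Of the 32851 promoters in the RefSeq table, 15.1% held the pair of 8 letters and 0.603% held the triplet of 13 letters, GAANNTTCNNGAA or its reverse complement TTCNNGAANNTTC. The pairs are palindromic, so reading either strand finds them, and every triplet holds 2 overlapping pairs. Promoters were listed for 47 members, 62 in all, of which 21% held a pair and 4.84% a triplet. The pair was found in 12 members: Chordc1, Dnaja4 and Hsph1, and also Dnaja1, which was higher at 10 months, Hspa1a, which was not called, and Dnajb4, Dnajc10, Dnajc27, Dnajc5g, Hspb3, Hspb6 and Hspb8. The triplet was found in 2 members, Hsph1 and Chordc1. In Hsph1 it read TTCTGGAAAGTTC and had its first letter at base 37 after the start, and a separate pair, TTCTCGAA, at base 33 before it. In Chordc1 the triplets GAACGTTCGGGAA, TTCGGGAAAATTC and GAAAATTCCTGAA overlapped in a single run across the start, and TTCCGGAA began at base 34 after it. Dnaja4 held GAACGTTC from base 90 and GAACCTTC from base 52 before the start. The matches describe letters in a window and not bound sites.

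Over the 5 ages, 19 of the 51 tested members (37.3%) differed by limma's F test with Benjamini-Hochberg adjustment at 0.05, against 38.4% of the 11836 genes tested. The share of members was thus near that of all genes. Of those 19, 13 (68.4%) had their lowest mean at 10 months and 4 (21.1%) their highest, beside 42.7% and 40% of the 4544 genes that differed; whether these shares differ was not tested. Neither differing over ages nor called in the 6 comparisons of ages run were 26 members, whose differences ran between -0.27 and 0.48. Dnajb4, Hspa2, Dnajc8, Dnajc14, Dnajc30 and Dnajc4 were called in a comparison of 2 ages but did not differ by the F test. Their F test adjusted p was 0.113, 0.117, 0.26, 0.0928, 0.0948 and 0.0757. The heatmap of changes against 1 month shows the members by family.

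**Figure D1:**
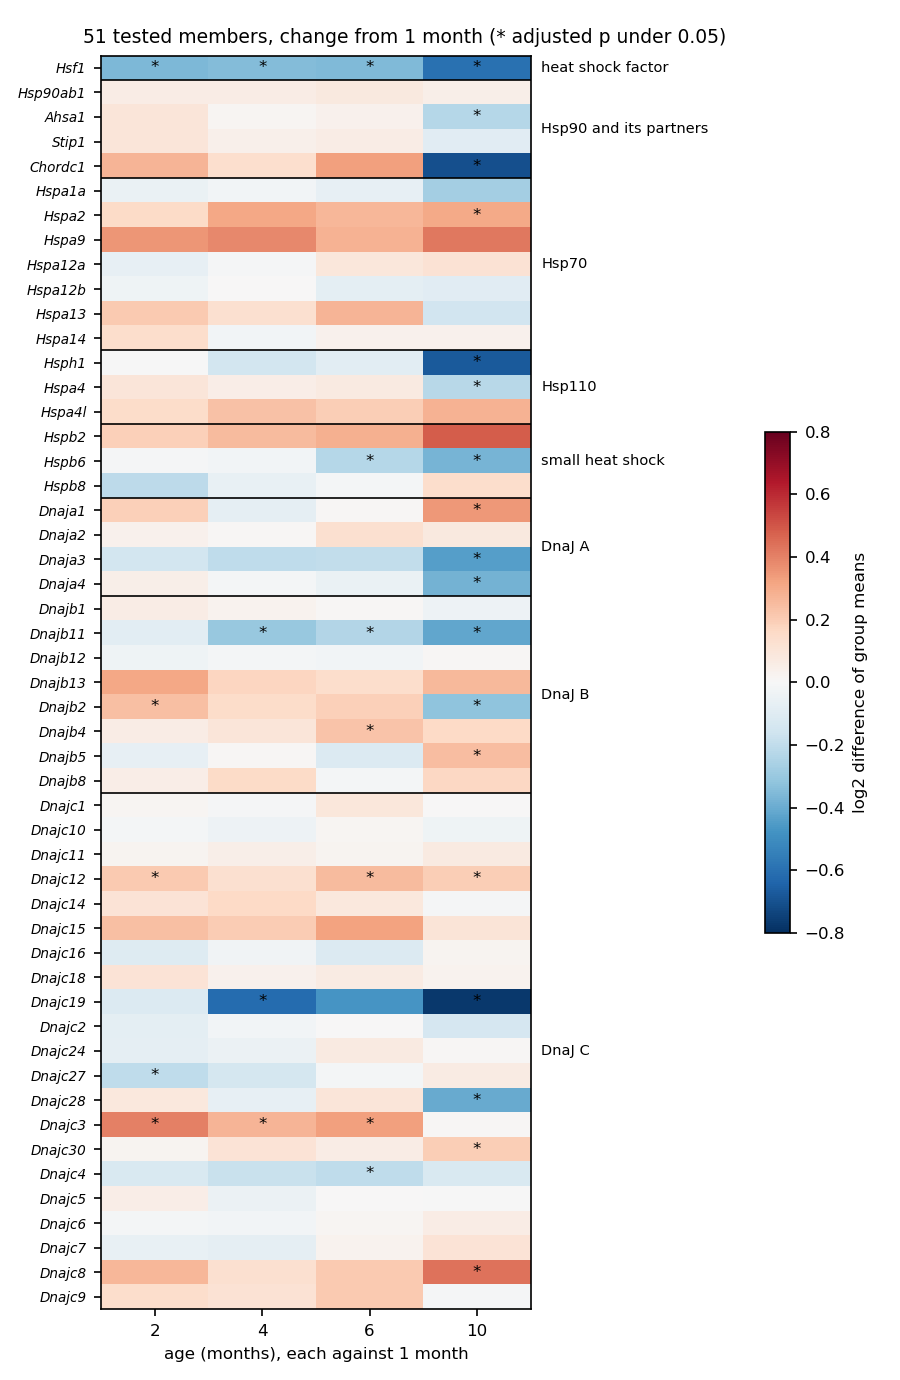
Colour gives the log2 difference of mean level at 2, 4, 6 and 10 months (columns) against 1 month for the 51 tested members (rows, by family), and asterisks mark an adjusted p under 0.05 in limma. The 10-month column holds 18 asterisks, 12 on lower and 6 on higher members.

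At 2 months against 1 month, 5 members were called (3 higher and 2 lower), or 9.80% of members against 8.52% of all genes (3.3% higher and 5.22% lower). All 2-month arrays were low in the Y-linked gene Eif2s3y (3.85 to 4.07) and all 1-month arrays were not (8.21 to 8.85), so age and this difference, which the labels do not explain, cannot be told apart in the 2-month calls. At 4 months against 1 month 4 were called (1 higher and 3 lower), 7.84% against 15.2% (6.9% higher and 8.26% lower). At 6 months against 1 month 7 were called (3 higher and 4 lower), 13.7% against 16.4% (7.89% higher and 8.52% lower). Marker lists of cell types differed from 1 month as well, and their part in these counts was not tested. Of 8 cone markers 1 was lower at 2 months, 2 at 4 months and 3 at 6 months, and none was higher. Of 7 tested bipolar markers 1 was higher at 2 months, 3 at 4 months and 5 at 6 months, and 1 was lower at each age. Of 8 Müller glia markers 4 were higher at 2 months and all 8 at 4, 6 and 10 months (array means 9.89 to 9.99 at 1 month, 10.12 to 10.25 at 2 months, 10.31 to 10.35 at 4 months, 10.34 to 10.42 at 6 months and 10.36 to 10.55 at 10 months). Of 8 microglia markers 5 were higher at 2 months and 3 at 4 months (array means 6.89 to 7.06 at 1 month, 7.22 to 7.41 at 2 months and 7.16 to 7.23 at 4 months), and of 8 endothelial markers 5 were lower at 4 and at 6 months and 1 was higher. The 1-month arrays also stood apart in lens genes: array means of that list were 6.51 to 7.05 at 1 month, 5.60 to 5.94 at 2 months, 5.67 to 6.16 at 4 months, 5.56 to 7.0 at 6 months and 5.75 to 5.98 at 10 months. The lens crystallin gene Cryaa read 8.58 to 9.74 at 1 month and 5.64 to 7.20 in the later arrays other than replicate 2 of 6 months, which read 9.22. These small counts moved with single libraries: the 2-month count was 2 with replicate 1 of 1 month or replicate 2, 3 or 4 of 2 months left out, and 3 with replicate 2 or 3 of 1 month left out. Leaving out replicate 1 of 1 month or replicate 2 of 4 months gave a 4-month count of 2, and leaving out replicate 1 of 4 months gave 7. The 6-month count was 4 with replicate 1, 2 or 3 of 1 month or replicate 2 of 6 months left out, and 3 with replicate 3 of 6 months left out.

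Hsf1, the regulator of the heat shock response, was lower at each later age than at 1 month, the age whose arrays were also higher in lens genes. Its levels were 9.66, 9.65, 9.80 and 9.41 at 1 month, 9.34, 9.19, 9.32 and 9.22 at 2 months, 9.26, 9.29, 9.23 and 9.35 at 4 months, 9.46, 9.33, 9.21 and 9.11 at 6 months and 8.93, 9.01, 9.11 and 9.08 at 10 months. The 2-, 4- and 10-month samples all lay below every 1-month sample, while the 6-month samples overlapped them by 1 sample. Against 1 month the log2 difference was -0.36 ± 0.08 (SE, n = 4 each) at 2 months (limma adjusted p = 0.00812), -0.35 at 4 months (adjusted p = 0.00576), -0.35 at 6 months (adjusted p = 0.00484) and -0.60 at 10 months (adjusted p = 8.93e-06). On its brightest probe set alone the calls at 2 and 4 months were lost (adjusted p = 0.216 and 0.0962), as were those of 10 months against 4 and 6 months (adjusted p = 0.225 and 0.348). At 10 months it was also lower than at 6 months (-0.24 ± 0.08, limma adjusted p = 0.0357), with 10 of its 11 probe sets below 0 and 2 of them without overlap between the groups. That call ended without replicate 1 or 2 of 6 months and without replicate 1 or 2 of 10 months (adjusted p up to 0.122, difference -0.30 to -0.18). It was also lost with the mean of the probe sets, with no filter on dim genes and with quantile normalization. The call against 4 months (-0.25, adjusted p = 0.0314) ended without replicate 2 or 4 of 4 months and without replicate 1 or 2 of 10 months (adjusted p up to 0.0934). With the mean of the probe sets it was lost as well.

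At 10 months more members were called: 18 against 1 month (6 higher and 12 lower), 15 against 4 months (4 higher and 11 lower) and 12 against 6 months (2 higher and 10 lower). Those are 35.3%, 29.4% and 23.5% of members, beside 41.4%, 21.9% and 20.3% of all genes. Of all genes, 20.8% were lower and 20.6% higher against 1 month, 11.7% lower and 10.2% higher against 4 months, and 11.7% lower and 8.56% higher against 6 months. Against 6 months, 10 of 51 members were lower beside 11.7% of all genes, and 2 higher beside 8.56%. The median difference of members between 10 and 6 months was -0.05, against 0.03 over all genes, and against 1 month it was 0.01, against 0.04. The comparisons share the 10-month samples, so their counts are not independent. Ahsa1, Chordc1, Dnaja4, Dnajb2, Dnajc28, Hsf1, Hspa4 and Hsph1 were lower at 10 months in all 3 of these comparisons, and Dnaja1 and Dnajb5 were higher in all 3. Those 8 are 15.7% of members tested, beside 8.32% of all genes, and those 2 are 3.92%, beside 5.39%; whether the shares differ was not tested.

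Several marker and stress lists differed at 10 months too, and their part in these results was not tested. Of 8 cone markers, 5 were lower and none was higher at 10 months than at 6 months, with array means of 11.75 to 11.84 at 10 months and 11.94 to 12.12 at 6 months. Of 12 tested immediate early genes, 6 were higher and none was lower (Egr1 by 1.12, Fos by 1.11 and Nr4a1 by 1.07). Against 1 month, 5 of these genes were lower at 2 months, 5 at 4 months and 7 at 6 months, and none was higher. At 10 months against 1 month 6 were higher and 1 lower, with a median difference of 0.31, against 0.63 from 6 months. Cirbp, a cold-inducible RNA-binding protein, was higher at 10 months, 11.07 to 11.23 against 10.23 to 10.42 at 6 months (0.80 ± 0.06, limma adjusted p = 1.89e-07). Of 5 tested pigment epithelium markers 1 was higher, and array means of that list were 6.83 to 8.05 at 10 months and 6.88 to 7.23 at 6 months. In bulk tissue, fewer cells of a type and less RNA per cell cannot be told apart. Replicates 2 and 3 of 10 months, like the 2-month arrays, were low in Eif2s3y and Kdm5d, which lie on the Y chromosome, and the labels give no sex. With 10 months taken as replicates 1 and 4 alone, the 10-month calls against 6 months were 9 (1 higher and 8 lower). Among them was a lower call not made with all 10-month arrays. The calls of Dnajc3, Hspa13, Hsf1 and Dnaja1 against 6 months ended (adjusted p of 0.14, 0.14, 0.0849 and 0.102). Their differences there were -0.193, -0.311, -0.268 and 0.353, against -0.317, -0.421, -0.244 and 0.333 with all 10-month arrays. In the same setting the calls of Hsf1, Dnajc3, Dnajc14 and Dnajc27 against 4 months ended (adjusted p of 0.0705, 0.297, 0.138 and 0.0583). Their differences were -0.273, -0.136, -0.167 and 0.216, against -0.248, -0.26, -0.169 and 0.205 with all arrays. The calls of Dnaja1, Dnajc30, Dnajc8 and Hspa2 against 1 month also ended (adjusted p of 0.0519, 0.083, 0.188 and 0.482). Their differences were 0.366, 0.182, 0.385 and 0.122, against 0.345, 0.196, 0.434 and 0.301 with all arrays. With fewer arrays a call can end without a smaller difference, and the part of the Y-linked difference was not tested.

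Of the 3 Hsp110 proteins, which exchange nucleotide on Hsp70, 2 were lower at 10 months than at 6 months, beside 11.7% of all genes. Whether the share of so small a family differs was not tested. The lowest adjusted p of all members in the F test was that of Hsph1 (3.89e-07). Hsph1 had levels of 9.71, 9.75, 9.66 and 9.74 at 1 month, 9.63, 9.72, 9.70 and 9.81 at 2 months, 9.73, 9.52, 9.57 and 9.46 at 4 months, 9.54, 9.66, 9.60 and 9.72 at 6 months and 9.02, 8.96, 9.06 and 9.13 at 10 months. Every 10-month sample lay below all 16 earlier ones. Hsph1 at 4 months was not called against 1 month, and was called without replicate 1 of 4 months (-0.20, adjusted p = 0.0292). The level at 10 months was 0.664 times that at 6 months (-0.59 ± 0.06, limma adjusted p = 2.49e-06) and 0.627 times that at 1 month (-0.67 ± 0.06, limma adjusted p = 1.01e-07). All 19 of its probe sets were lower against 6 months, by -0.95 to -0.19, and 17 of them had no overlap. With 10 months taken as replicates 1 and 4 alone, the difference from 6 months was -0.56 (adjusted p = 0.000122).

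Hspa4, the second Hsp110 member, was lower at 10 months by less. Its levels at 10 months were 10.24, 10.30, 10.25 and 10.36, against 10.53, 10.59, 10.64 and 10.59 at 6 months (-0.30 ± 0.05, limma adjusted p = 0.000519) and 10.56, 10.48, 10.48 and 10.53 at 1 month (-0.23 ± 0.05, limma adjusted p = 0.00209). The 10-month samples did not overlap either group. On its brightest probe set alone the call against 1 month was lost (-0.19, adjusted p = 0.0616). Hspa4l, the third, differed by 0.08 between 10 and 6 months and was not called.

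**Figure D2:**
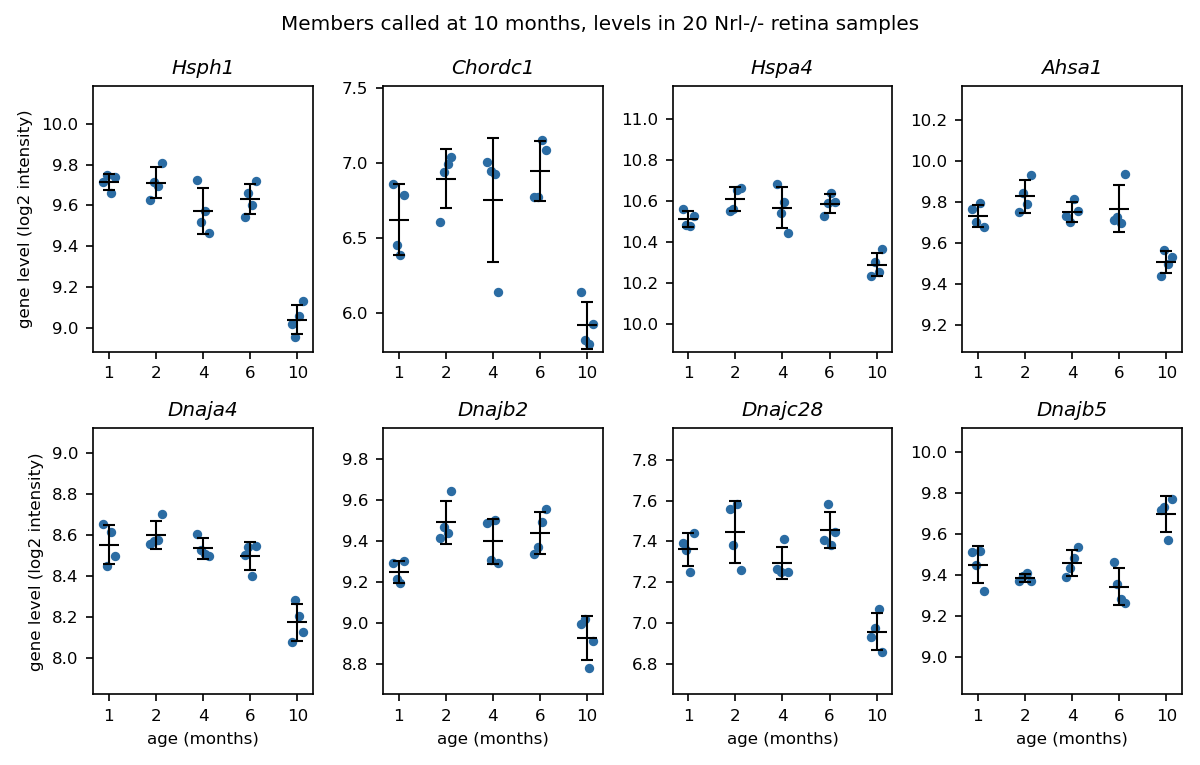
Level (log2 intensity, vertical axis) of 8 members in each of 20 samples by age in months (horizontal axis), with the mean and SD as bars. The 10-month samples of Hsph1, Hspa4, Dnaja4, Dnajb2, Dnajc28 and Ahsa1 lie below the other ages and those of Dnajb5 above them.

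Among Hsp90 and its partners, Hsp90ab1, the constitutive Hsp90 of the cytosol, was not called at any age. It had levels of 11.50, 11.55, 11.53 and 11.52 at 1 month, 11.51, 11.57, 11.55 and 11.70 at 2 months, 11.52, 11.61, 11.59 and 11.60 at 4 months, 11.51, 11.57, 11.65 and 11.67 at 6 months and 11.65, 11.49, 11.60 and 11.54 at 10 months. The ages overlapped throughout (-0.03 ± 0.05 at 10 against 6 months, limma adjusted p = 0.679, F test adjusted p = 0.715). Hsp90aa1, the inducible Hsp90, has 1 probe set and was dim (5.68, 5.08, 4.91 and 5.47 at 1 month, 5.20, 5.40, 5.37 and 5.57 at 2 months, 4.68, 5.96, 5.71 and 6.48 at 4 months, 5.33, 5.52, 5.68 and 5.70 at 6 months and 5.72, 6.04, 6.04 and 5.58 at 10 months), and was not tested. Stip1, which joins Hsp70 to Hsp90, was not called (-0.14 ± 0.06 at 10 against 6 months, limma adjusted p = 0.0997).

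Chordc1, an Hsp90-binding protein, had the largest difference of any member tested between 10 and 6 months. Its levels were 6.86, 6.45, 6.38 and 6.79 at 1 month, 6.61, 6.94, 7.0 and 7.04 at 2 months, 7.01, 6.95, 6.93 and 6.14 at 4 months, 6.77, 6.77, 7.15 and 7.09 at 6 months and 6.14, 5.82, 5.79 and 5.93 at 10 months. At 10 months the level was 0.49 times that at 6 months (-1.03 ± 0.17, limma adjusted p = 0.000251), and the groups did not overlap. All 12 probe sets were lower, by -2.41 to -0.27, and the brightest one had the smallest difference. Taken on that brightest probe set alone, the difference was -0.27 against 6 months (adjusted p = 0.295) and 0.08 against 1 month (adjusted p = 0.721), and the call did not hold there. Replicate 4 of 4 months stood apart from its group at 6.14, level with the highest 10-month sample. Ahsa1, which activates the Hsp90 ATPase, was -0.26 ± 0.06 at 10 against 6 months (limma adjusted p = 0.00304) with 9 of 10 probe sets lower.

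Of the 7 Hsp70 members, the stress-inducible Hspa1a was called in none of the 6 comparisons. Its levels were 8.19, 8.05, 7.71 and 7.94 at 1 month, 8.29, 7.98, 7.64 and 7.77 at 2 months, 7.84, 7.86, 7.85 and 8.26 at 4 months, 7.94, 7.93, 7.68 and 8.07 at 6 months and 7.67, 7.67, 7.89 and 7.58 at 10 months. The 10-month samples overlapped those of 6 months (-0.20 ± 0.13, limma adjusted p = 0.306, F test adjusted p = 0.423), and the near-identical Hspa1b makes its level uncertain. At 10 months against 1 month it stood at -0.27 ± 0.13 (limma adjusted p = 0.117), and was called without replicate 3 of 1 month (-0.36, adjusted p = 0.0488), while on its brightest probe set the sign was the other way (0.15, adjusted p = 0.514). Hspa13, an Hsp70 of the endoplasmic reticulum, was lower at 10 against 6 months, 8.43, 8.38, 8.26 and 8.64 against 8.78, 8.78, 8.98 and 8.84 (-0.42 ± 0.11, limma adjusted p = 0.0108), but on its brightest probe set alone the call was lost (-0.24, adjusted p = 0.221). Hspa2 was higher at 10 months than at 1 month (0.30, adjusted p = 0.036), with overlapping groups, and that call ended when replicate 1 or 2 of 1 month or replicate 2 or 3 of 10 months was left out (adjusted p up to 0.128). With 10 months taken as replicates 1 and 4 the Hspa2 difference was 0.12 (adjusted p = 0.482), and on its brightest probe set 0.49 (adjusted p = 0.00329). The mitochondrial Hspa9 stood at 0.42 ± 0.19 against 1 month and was not called (limma adjusted p = 0.0775). Hspa12a, Hspa12b and Hspa14 were called in no comparison.

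**Figure D3:**
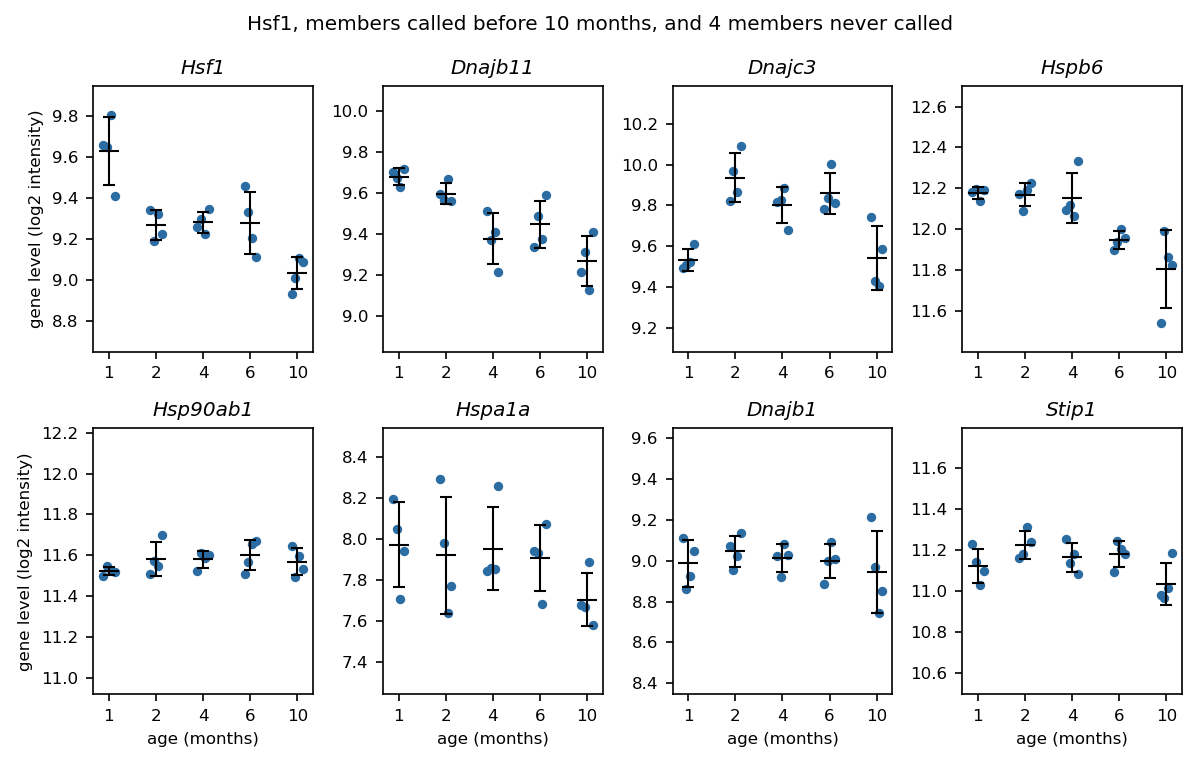
Level (log2 intensity, vertical axis) of 8 members in each of 20 samples by age in months (horizontal axis), with the mean and SD as bars. Hsf1, Dnajb11 and Hspb6 run lower at 10 months than at 1 month, Dnajc3 is higher at 2, 4 and 6 months than at 1 month, and Hsp90ab1, Hspa1a, Dnajb1 and Stip1 overlap across ages.

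Hspb6, a small heat shock protein, had levels of 12.18, 12.20, 12.14 and 12.19 at 1 month, 12.17, 12.09, 12.19 and 12.22 at 2 months, 12.10, 12.12, 12.06 and 12.33 at 4 months, 11.90, 11.94, 12 and 11.96 at 6 months and 11.54, 11.99, 11.87 and 11.83 at 10 months. It fell at 10 months against 1 month (-0.37 ± 0.07, limma adjusted p = 0.000628), with 4 of 4 probe sets lower and no overlap. The difference of 6 against 1 month (-0.23, adjusted p = 0.0452) lost its call without any 1 of the 8 libraries compared (adjusted p up to 0.0952). Hspb2 was at 0.48 against 1 month and was not called (adjusted p = 0.0698), and Hspb8 was not called.

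In the DnaJ A family, Dnaja4 fell and Dnaja1 rose at 10 months. Dnaja4 had levels of 8.65, 8.45, 8.61 and 8.50 at 1 month, 8.56, 8.57, 8.57 and 8.70 at 2 months, 8.61, 8.53, 8.51 and 8.50 at 4 months, 8.50, 8.54, 8.40 and 8.54 at 6 months and 8.08, 8.28, 8.21 and 8.13 at 10 months. No 10-month sample reached any earlier one (-0.32 ± 0.06 against 6 months, limma adjusted p = 0.000675). Dnaja1, a cytosolic Hsp70 partner measured by 1 probe set, was 9.29, 8.97, 9.18 and 8.94 at 10 months against 8.78, 8.80, 8.64 and 8.83 at 6 months (0.33 ± 0.11, limma adjusted p = 0.0402). That call ended without any of the 4 replicates of 6 months or replicates 1 and 3 of 10 months (adjusted p up to 0.126), and a pseudogene of Dnaja1 is listed in RefSeq. The call against 1 month (0.35, adjusted p = 0.0179) was lost when replicate 3 of 1 month or replicate 1 of 10 months was left out, with adjusted p up to 0.0678. The mitochondrial Dnaja3 was -0.44 at 10 months against 1 month (adjusted p = 0.0038).

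In the DnaJ B family, Dnajb1, the main stress-induced partner of Hsp70, was called in none of the 6 comparisons. Its levels were 9.11, 8.86, 8.93 and 9.05 at 1 month, 9.07, 8.95, 9.02 and 9.13 at 2 months, 9.02, 8.92, 9.08 and 9.03 at 4 months, 8.89, 9.0, 9.09 and 9.01 at 6 months and 9.21, 8.97, 8.75 and 8.85 at 10 months. Its ages overlapped (F test adjusted p = 0.849), and at 10 months against 1 month it stood at -0.04 ± 0.08. On its brightest probe set alone it was called lower there (-0.28, adjusted p = 0.041). Dnajb2, a neuronal DnaJ that binds ubiquitin, was 9.29, 9.21, 9.2 and 9.30 at 1 month, 9.42, 9.47, 9.44 and 9.64 at 2 months, 9.49, 9.31, 9.50 and 9.29 at 4 months, 9.34, 9.37, 9.49 and 9.56 at 6 months and 8.99, 9.02, 8.78 and 8.91 at 10 months. It was 0.24 higher at 2 months than at 1 month (adjusted p = 0.0396), a call lost without replicate 1, 2 or 3 of 1 month and without replicate 2, 3 or 4 of 2 months (adjusted p up to 0.161) and on its brightest probe set (0.07, adjusted p = 0.731), and it fell at 10 months (-0.51 ± 0.07 against 6 months, limma adjusted p = 5.31e-05) with 9 of 9 probe sets lower. Dnajb5 rose at 10 months, 9.72, 9.73, 9.57 and 9.77 against 9.47, 9.36, 9.28 and 9.26 at 6 months (0.36 ± 0.06, limma adjusted p = 0.000281), with no overlap.

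The remaining B member with a call at 10 months was Dnajb11, which works with Hspa5 in the endoplasmic reticulum. Its levels were 9.70, 9.67, 9.63 and 9.72 at 1 month, 9.59, 9.56, 9.67 and 9.56 at 2 months, 9.51, 9.37, 9.41 and 9.21 at 4 months, 9.33, 9.49, 9.37 and 9.59 at 6 months and 9.22, 9.31, 9.13 and 9.41 at 10 months. It fell against 1 month at 4 months (-0.30 ± 0.07, limma adjusted p = 0.00647) and at 10 months (-0.41 ± 0.07, limma adjusted p = 0.000119), and in both comparisons 12 of 12 probe sets were lower. The call at 6 months (-0.23, adjusted p = 0.0289) was lost with replicate 1, 2 or 4 of 1 month or replicate 1 or 3 of 6 months left out (adjusted p up to 0.0894) and on its brightest probe set (adjusted p = 0.0641). Dnajb4 was higher at 6 months than at 1 month (0.23, adjusted p = 0.0419), and that call was lost with replicate 1, 2 or 3 of 1 month or replicate 2, 3 or 4 of 6 months left out (adjusted p up to 0.151).

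In the DnaJ C family, Dnajc3, an inhibitor of the stress kinase of the endoplasmic reticulum, was higher at 2, 4 and 6 months than at 1 month. Its levels were 9.49, 9.51, 9.52 and 9.61 at 1 month, 9.82, 9.97, 9.86 and 10.09 at 2 months, 9.81, 9.83, 9.89 and 9.68 at 4 months, 9.78, 9.84, 10.00 and 9.81 at 6 months and 9.74, 9.43, 9.41 and 9.59 at 10 months. The 2-, 4- and 6-month samples all lay above the 1-month samples, and the 10-month samples overlapped the 1-month range. Against 1 month the difference was 0.40 ± 0.08 at 2 months (limma adjusted p = 0.00299), 0.27 at 4 months (adjusted p = 0.0232) and 0.33 at 6 months (adjusted p = 0.00658). The 4-month call was lost with replicate 1, 2 or 3 of 1 month or replicate 2 or 3 of 4 months left out (adjusted p up to 0.0696). At 10 months it was lower than at 6 months (-0.32 ± 0.08, limma adjusted p = 0.00596) and at 4 months (-0.26, adjusted p = 0.0206), the second call being lost with replicate 2 or 3 of either age left out (adjusted p up to 0.0679).

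Dnajc19, of the mitochondrial inner membrane, is measured by 2 probe sets, and RefSeq lists a pseudogene of it. Its levels were 6.60, 6.07, 6.27 and 6.64 at 1 month, 6.30, 6.38, 6.27 and 6.20 at 2 months, 5.76, 5.64, 6.09 and 5.63 at 4 months, 6.12, 5.74, 6.18 and 5.66 at 6 months and 5.83, 5.80, 4.99 and 5.87 at 10 months. It fell at 10 months against 1 month (-0.77 ± 0.18, limma adjusted p = 0.00174), and the call at 4 months (-0.62, adjusted p = 0.0234) was lost with replicate 1 or 4 of 1 month or replicate 2 or 4 of 4 months left out (adjusted p up to 0.0747). The 10-month mean of Dnajc19, 5.62, lay near the limit of the filter on dim genes, 5.61. On its brightest probe set alone the gene was not tested. Dnajc28 was 7.39, 7.36, 7.25 and 7.44 at 1 month, 7.56, 7.38, 7.58 and 7.26 at 2 months, 7.27, 7.25, 7.41 and 7.25 at 4 months, 7.41, 7.58, 7.38 and 7.45 at 6 months and 6.93, 6.98, 7.07 and 6.86 at 10 months. No 10-month sample of Dnajc28 reached an earlier one (-0.50 ± 0.07 against 6 months, limma adjusted p = 9.48e-05), but on its brightest probe set the difference was -0.35 (adjusted p = 0.143). The calls against 1 and 4 months were lost there too (-0.34 and -0.29, limma adjusted p = 0.0737 and 0.238).

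Dnajc12 was higher than at 1 month at 2, 6 and 10 months. Its levels were 10.10, 10.13, 9.95 and 10.03 at 1 month, 10.20, 10.22, 10.34 and 10.30 at 2 months, 10.19, 10.19, 10.20 and 10.17 at 4 months, 10.16, 10.24, 10.44 and 10.39 at 6 months and 10.35, 10.18, 10.26 and 10.22 at 10 months. The difference was 0.25 ± 0.06 at 6 months (limma adjusted p = 0.00784), 0.21 at 2 months (adjusted p = 0.0373) and 0.20 at 10 months (adjusted p = 0.0148). The 2-month call was lost with replicate 1, 3 or 4 of 1 month or replicate 2, 3 or 4 of 2 months left out (adjusted p up to 0.118), and the 10-month call with replicate 3 of 1 month or replicate 1 of 10 months left out (adjusted p up to 0.0533). On its brightest probe set alone all 3 calls were lost, with differences of 0.09 at 2 months (adjusted p = 0.583), 0.16 at 6 months (adjusted p = 0.203) and 0.06 at 10 months (adjusted p = 0.539).

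Of the other C members with a call, Dnajc30, a mitochondrial protein, was higher at 10 months than at 1 month (0.20, adjusted p = 0.0186), and lost the call with replicate 4 of 1 month or replicate 3 of 10 months left out (adjusted p up to 0.0667). Dnajc8, a protein of the spliceosome, was also higher (0.43, adjusted p = 0.0455) with overlapping groups, and lost the call with any 10-month replicate or with replicate 2 or 4 of 1 month left out (adjusted p up to 0.167). Dnajc27, which carries a Rab-like GTPase domain, was lower at 2 months than at 1 month (-0.20, adjusted p = 0.0377) and higher at 10 months than at 4 months (0.20, adjusted p = 0.0186). The 2-month call was lost with any 2-month replicate or replicate 1 or 2 of 1 month left out (adjusted p up to 0.126), and the 10-month call with replicate 2 or 4 of 4 months or replicate 4 of 10 months left out (adjusted p up to 0.0561). Dnajc4 was lower at 6 months than at 1 month (-0.20, adjusted p = 0.0279), and lost the call with replicate 2 or 3 of either age left out (adjusted p up to 0.111). Between 10 and 4 months Dnajc14 was lower (-0.17, adjusted p = 0.0461) and Dnajc7 higher (0.18, adjusted p = 0.0182). Dnajc14 lost the call with any 10-month replicate or replicate 2, 3 or 4 of 4 months left out (adjusted p up to 0.109), and Dnajc7 with replicate 3 or 4 of 10 months left out (adjusted p up to 0.0631). On the brightest probe set alone these calls were also lost, with differences of 0.08 for Dnajc30 (adjusted p = 0.428), -0.04 for Dnajc8 (adjusted p = 0.628), -0.22 and 0.10 for Dnajc27 at 2 and 10 months (adjusted p = 0.129 and 0.506), -0.21 for Dnajc4 (adjusted p = 0.298), -0.10 for Dnajc14 (adjusted p = 0.558) and 0.13 for Dnajc7 (adjusted p = 0.335). Dnajc5, the cysteine string protein of synaptic vesicles, and Dnajc6, the auxilin that uncoats clathrin vesicles, stayed within 0.10 and 0.08 over the mean levels of the 5 ages.

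**Figure D4:**
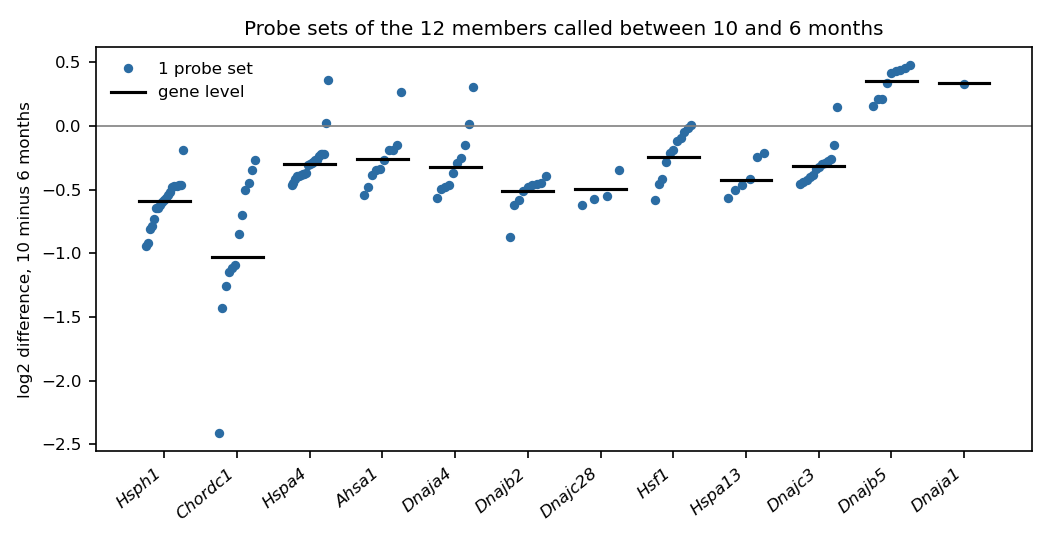
Each point is the log2 difference between 10 and 6 months of 1 probe set (vertical axis) for the 12 members called between these ages (horizontal axis), and the line is the gene-level difference. All 19 points of Hsph1 and all 12 of Chordc1 lie below 0, and those of Chordc1 spread from -2.41 to -0.27.

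Chaperones and cofactors outside the naming rule were read from lists, by counts. Their calls were not followed under the alternatives run for members, such as leaving out single libraries. Of 8 tested chaperones outside it, 4 were lower and none higher at 10 than at 6 months (median -0.34, against 0.03 for all genes): Hspa5, the main Hsp70 of the endoplasmic reticulum (-0.69 ± 0.09, limma adjusted p = 3.35e-05), Clpb, a mitochondrial disaggregase (-0.43 ± 0.05, limma adjusted p = 4.62e-06), Hyou1 (-0.36) and Trap1 (-0.33). Mean levels of Hspa5 were 11.10 at 1 month, 11.66 at 2 months, 11.54 at 4 and at 6 months and 10.85 at 10 months. Its 6-month level was thus above that at 1 month. Of 12 tested Hsp90 cochaperones, 2 were higher and 1 lower, with Fkbp5, a steroid receptor cochaperone, at 0.44 ± 0.10 (limma adjusted p = 0.00381). Of 9 tested Hsp70 cofactors, 1 was higher and 1 lower: Bag3, a nucleotide exchange factor induced by stress, was 0.74 ± 0.16 higher (limma adjusted p = 0.00264), with levels of 7.95 to 9.04 at 10 months against 7.60 to 7.82 at 6 months, and St13 was lower (-0.24). Of 11 tested subunits of the TRiC and prefoldin complexes, 2 were lower (Cct4, -0.28, and Cct3, -0.26) and none was higher. Of 4 tested heat shock factor genes and regulators, Hsf4 was higher (0.27 ± 0.08, limma adjusted p = 0.0247).

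**Figure D5:**
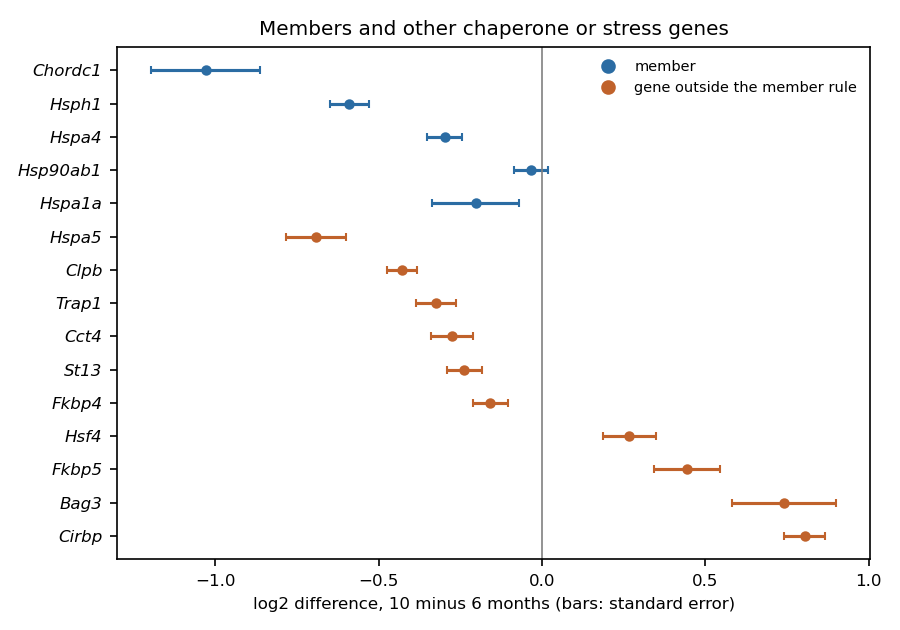
Log2 difference between 10 and 6 months with its standard error (horizontal axis) for 5 members (blue) and 10 genes outside the naming rule (orange). Hspa5, Clpb, Hsph1 and Hspa4 lie below 0, and Hsf4, Fkbp5, Bag3 and Cirbp lie above it.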

How the data were processed

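Retinas of 20 Nrl-/- mice (4 each at 1, 2, 4, 6 and 10 months) were measured on exon arrays. The deposited log2 intensities of probe sets were computed by the authors with RMA, per the submitters' processing notes. The array's build is not given in the sources used. RMA equalises the arrays' distributions and would hide a change common to every gene. Of 194293 probe sets, the 179496 with a unique gene symbol were used.

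Median polish (at most 20 iterations) gave 1 value per gene in each array. The dimmest 25% of genes were left out, leaving 11836. limma 3.58.1 in R 4.3.3 (lmFit, eBayes) was fitted on all 20 arrays with 1 mean per age, two-sided, with Benjamini-Hochberg adjustment over all genes tested, threshold 0.05, for 6 comparisons of 2 ages and an F test. Errors are standard errors of the fit unless SD is named. The number of arrays, 4 per age, limits the precision. The fit was tested on simulated data. Every-array values are given for members fixed by name (Hsf1, Hsp90aa1, Hsp90ab1, Hspa1a, Hsph1 and Dnajb1 were measured) and for the 4 members with the largest change in each comparison among those called without overlap. The members, lists and tests were chosen with earlier results of these data known. Same-numbered samples are separate mice, so the numbers were not taken as pairs. Correlations of same-numbered samples ran between -0.574 and 0.563, with 10 of 40 above 0.1. Samples with different numbers were not compared in this way, so these values cannot decide whether the numbers mark a shared effect. Alternatives changed the gene summary, filter, normalization, weights and samples.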

Additional observations from a re-analysis of the deposited data

Results flagged for a closer look

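Of 75 groups of 4 samples (15 members at 5 ages), 5 had a sample whose gap to the others was above Dixon's critical value at 95%, and chance gives about 1 in 20. Hspa1a had its highest 4-month value, 8.26, in replicate 4, with the others between 7.84 and 7.86. Dnajc19 had its lowest 10-month value, 4.99, in replicate 3, with the others between 5.80 and 5.87. Chordc1 had its lowest 4-month value, 6.14, in replicate 4, with the others between 6.93 and 7.01. Dnaja4 had its highest 2-month value, 8.70, in replicate 4, with the others between 8.56 and 8.57. Dnajc28 had its highest 4-month value, 7.41, in replicate 3, with the others between 7.25 and 7.27. Replicate 4 of 4 months, which carries the Hspa1a and Chordc1 values, also had the lowest mean correlation with the other arrays, 0.985.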

How the results depend on the processing

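The member results followed here were those called in the main fit and those of the members fixed by name. Calls gained by other members were not counted among them. Of 1464 such results under alternatives, 1291 kept their side of the threshold (1251 with the same sign and 40 uncalled ones with the other sign). A further 166 lost the call, 5 gained one and 2 reversed. Of 61 called results, 28 kept the call under every alternative in which the gene was tested. On the brightest probe set alone, Chordc1 at 10 months against 1 month reversed to 0.075 (adjusted p = 0.721) and Dnajc8 to -0.044 (adjusted p = 0.628). The count of members called at 2 months against 1 month, 5, became 2 with the mean of the probe sets, 1 with the brightest probe set, 2 with no filter on dim genes, 10 with array weights and 2 with the replicate block. At 4 months against 1 month it was 9 with array weights, and at 6 months against 1 month 11 with array weights and 4 with the replicate block. With the brightest probe set it was 9 at 10 against 4 months and 7 at 10 against 6 months. The cause was not tested. With a replicate block on the numbers the F test called 18, and 10 months called 17 against 1 month, 14 against 4 months and 12 against 6 months. Leaving out 1 library at a time gave 2 to 4 calls at 2 months against 1 month, 2 to 7 at 4 months, 3 to 7 at 6 months and 15 to 19 at 10 months against 1 month, 11 to 15 at 10 against 4 months, 10 to 14 at 10 against 6 months and 15 to 20 by the F test.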
